A study of Mus musculus with 473 samples.

Results

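E15.MB.2 is a cluster of 20 midbrain cells from mouse embryos at embryonic day 15.5 (E15.5). Its cells were chosen by the cluster name that the submitters' labels give each cell, and they are 20 of the 473 cells of the series and 20 of the 88 E15.5 midbrain cells that carry a cluster name. The other 68 of these 88 cells are labelled E15.MB.1 and serve here as the comparison. Both clusters come from the same tissue pool, the midbrains of 4 embryos. The embryos carried the transgene Th:EGFP, Tg(Th-EGFP)DJ76Gsat, a bacterial artificial chromosome in which the regulatory sequence of the tyrosine hydroxylase gene (Th) drives enhanced green fluorescent protein (eGFP), hemizygous on the outbred Swiss Webster background. The tissue was dissociated with papain, and living cells with eGFP fluorescence were sorted into the wells of plates for Smart-Seq2, a full-length poly(A) RNA method. No treatment was given and no other allele is named. The reporter limits both clusters in the same way, since a cell enters the data through eGFP fluorescence and not through its Th RNA.

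Midbrain dopaminergic neurons arise from the floor plate of the ventral midbrain. Lmx1a, Lmx1b, Foxa1, Foxa2 and the engrailed factors specify them, and Nr4a2 and Pitx3 then drive the genes of the dopamine phenotype. Tyrosine hydroxylase makes L-DOPA from tyrosine, DOPA decarboxylase makes dopamine, the vesicular transporter Slc18a2 packs it into vesicles, and the plasma membrane transporter Slc6a3 takes it back up after release. Roof and dorsal parts of the midbrain express other factors, among them Pax5, Pax7 and Lhx9, and give rise to the neurons of the colliculi.

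Levels are FPKM values, which count fragments per kilobase of a transcript and relative to all fragments of a library. A gene was counted as found in a cell at 1 FPKM or more, and shares of cells carry exact (Clopper-Pearson) 95% intervals that cover counting error only. A log2 fold is the base-2 logarithm of the ratio of the cluster means after adding 1 FPKM to each, so it understates the difference of a gene with a low mean. No fold over both plates is given against a cluster in which a gene is listed at 0. A fold on 1 plate can be against cells all listed at 0 there, and its size then depends on the added 1 FPKM. The cells of a cluster share 1 pool of animals, and the clusters were drawn from the expression of these same cells. For this reason no test was made, and the values describe these 88 cells.

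The FPKM sum per cell ran from 276918 to 4079150 in E15.MB.2 (median 1003570) and from 324830 to 2896060 in E15.MB.1 (median 961777). The labels give 4044 to 6817 expressed genes per cell in E15.MB.2 (median 5891) and 3989 to 8600 in E15.MB.1 (median 6399), so E15.MB.2 cells had somewhat fewer; the part of this in the results was not tested. Plate TH01_14.15 held 11 cells of E15.MB.2 and 32 of E15.MB.1, and plate TH01_15.14 held 9 and 36. For 6 genes that every cell uses, such as Actb and Gapdh, 1 of 120 values in E15.MB.2 and 3 of 408 in E15.MB.1 were listed at 0, so a value of 0 for a gene in a single cell can be a failed estimate.

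Since the clusters were drawn from the expression of these same cells, markers give no independent check of identity. The cluster was described with the marker genes Slc6a3, Lmx1a and Chrna6. At least 1 of them was found in 20 of 20 E15.MB.2 cells and in 8 of 68 E15.MB.1 cells, and all 3 were found in 10 E15.MB.2 cells and in 0 E15.MB.1 cells (0 of 68 allows a share of up to 4.41%). Lmx1a, a LIM homeodomain factor of the floor plate (chromosome 1, 167689237 to 167848741, plus strand, GRCm38), ranged in E15.MB.2 from 0 to 680.3 FPKM with a median of 126. In E15.MB.1 its highest value was 2.71 FPKM and its median 0. All 19 E15.MB.2 cells in which it was found lay above every E15.MB.1 cell, and the remaining E15.MB.2 cell was at 0. The log2 fold was 7.46, with 6.87 on plate TH01_14.15 and 7.99 on plate TH01_15.14. On the latter plate Lmx1a was listed at 0 in every E15.MB.1 cell, so the size there depends on the added 1 FPKM.

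**Figure D1:**
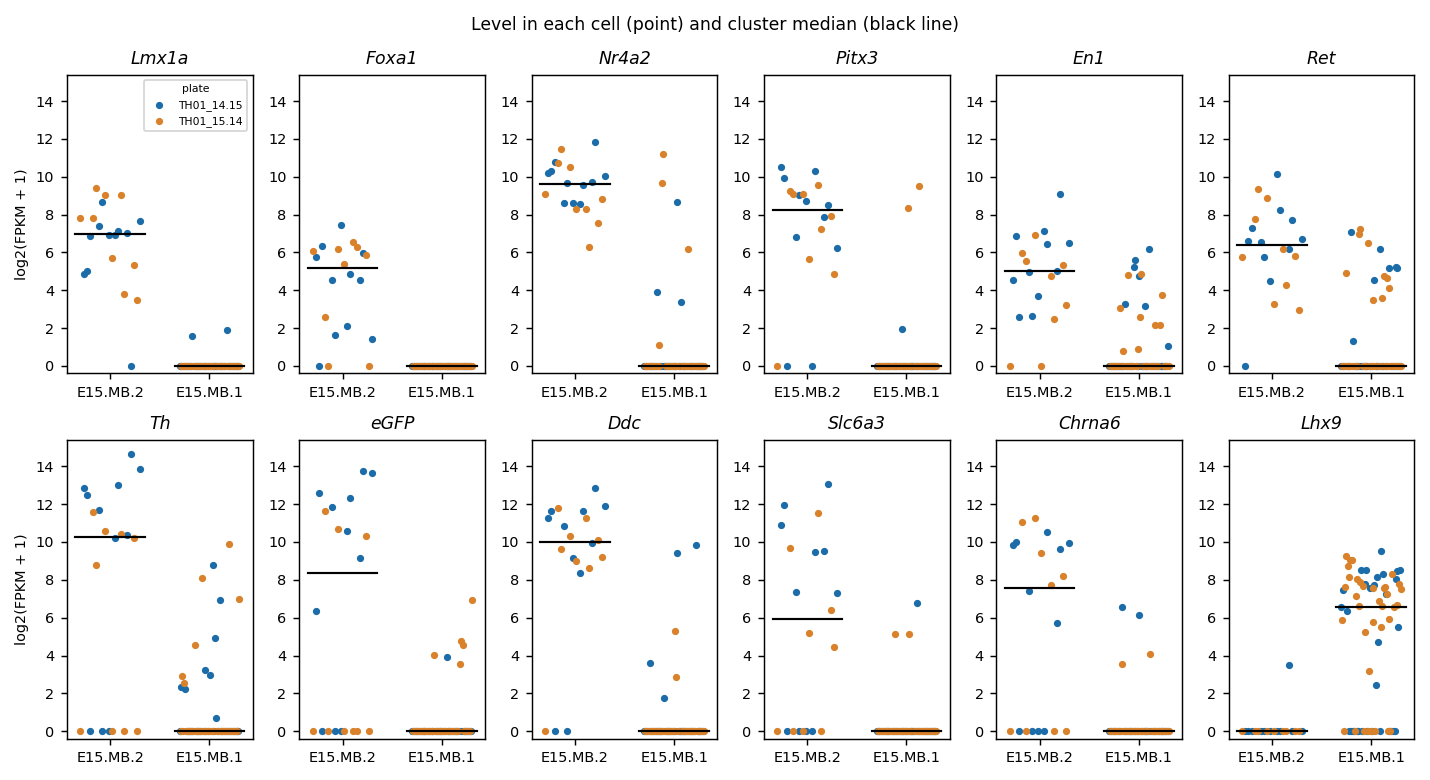
Level of 12 genes in each of the 88 cells, as log2(FPKM + 1), by cluster and library plate (colour), with the cluster median as a black line. Lmx1a, Nr4a2 and Pitx3 lie well above 0 in 17 or more of the 20 E15.MB.2 cells, Foxa1 spreads from 0 to 176 FPKM, Th, eGFP, Slc6a3 and Chrna6 split the cluster into cells with high values and cells at 0, and Lhx9 shows the reverse pattern.

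The genes that most E15.MB.2 cells shared were led by transcription factors and axon genes. By the rule that a gene be found in at least 90% of E15.MB.2 cells, in at least 75% of them on each plate and in at most 50% of E15.MB.1 cells, 9 of 13446 genes with a mean of at least 1 FPKM over the 88 cells were shared, which is 0.0669%. They were Lmx1a, C130021I20Rik, Nr4a2, Ntn1, Iqschfp, Ret, En1, Foxp2 and Slit2. Each E15.MB.2 cell had between 7 and 9 of them, and 11 of the 20 had all 9. The E15.MB.1 cells had between 0 and 6, with a median of 2, so the clusters did not overlap in this count, which the choice of the 9 genes fixes in part. By the same rule, plate TH01_14.15 alone gave 30 genes, 8 of the 9 among them, and plate TH01_15.14 alone gave 6, which were Lmx1a, Nr4a2, Ntn1, Iqschfp, Ret and the dopamine gene Slc18a2.

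Nr4a2, the orphan nuclear receptor Nurr1, was found in 20 of 20 E15.MB.2 cells (100%, interval 83.2% to 100%) and in 7 of 68 E15.MB.1 cells (10.3%, 4.24% to 20.1%). Its values in E15.MB.2 ran from 77.6 to 3631 FPKM with a median of 782. In E15.MB.1 the median was 0, but the highest cell reached 2318 FPKM and supplied 63.8% of the cluster's summed level, so the ranges overlapped. The log2 fold was 4.22, and 5.41 without the highest cell of each cluster. En1, the engrailed homeodomain factor of the midbrain and anterior hindbrain, was found in 18 E15.MB.2 cells (90%) and 14 E15.MB.1 cells (20.6%), with medians of 30.8 and 0 FPKM and a log2 fold of 3.74. Foxp2, a forkhead factor of many neuron types, was found in 19 (95%) and 25 cells (36.8%), and its log2 fold of 1.63 was far smaller than its difference in share.

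Among the shared axon genes, Ntn1 encodes netrin-1, a guidance cue of the ventral midline. It was found in 18 E15.MB.2 cells (90%, 68.3% to 98.8%) at a median of 48.4 FPKM and in 5 E15.MB.1 cells (7.35%, 2.43% to 16.3%) at a median of 0, with a log2 fold of 4.72. Slit2, a repellent cue, was found in 18 and in 31 cells (45.6%), with a log2 fold of 1.41. Ret, the signalling receptor for ligands of the GDNF family, was found in 19 (95%, 75.1% to 99.9%) and in 16 cells (23.5%). Its median was 82.6 FPKM against 0, its highest values were 1126 and 152 FPKM, and its log2 fold was 3.86.

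The last 2 of the 9 are less familiar features. C130021I20Rik is annotated in GENCODE M21 as an antisense RNA (chromosome 2, 33641193 to 33646354, plus strand) and starts beside the 5′ end of Lmx1b, which lies on the minus strand at 33560965 to 33640511 and does not overlap it. It was found in 19 E15.MB.2 cells (95%) and 2 E15.MB.1 cells (2.94%), with a median of 232 FPKM, a highest value of 1259 and a log2 fold of 7.63. Its neighbour Lmx1b, the LIM homeodomain partner of Lmx1a, was found in only 8 of the E15.MB.2 cells (40%), each of which also had C130021I20Rik, while 11 cells had C130021I20Rik without Lmx1b. Lmx1b was listed at 0 in all 68 E15.MB.1 cells. Iqschfp is a read-through gene that overlaps Iqcj and Schip1 on the same strand, so its level (19 and 14 cells, log2 fold 4.03) is uncertain.

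**Figure D2:**
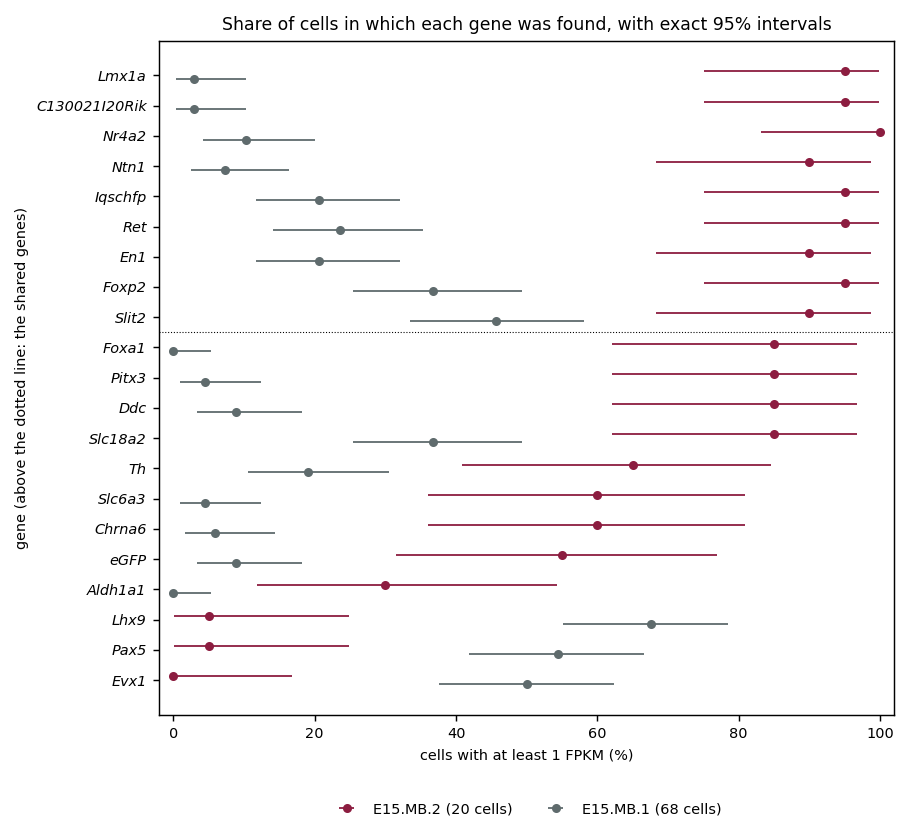
Share of cells with at least 1 FPKM in E15.MB.2 (20 cells) and E15.MB.1 (68 cells) for the 9 shared genes, above the dotted line, and 12 other named genes. Bars are exact 95% intervals for counting error. Nr4a2 stands at 100% against 10.3%, Th at 65% against 19.1%, and Lhx9 at 5% against 67.6%.

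Over all genes, 945 of the 13446 were at least 2-fold higher in E15.MB.2 with the same direction on both plates (7.03%), and 1900 were at least 2-fold lower (14.13%). Of these calls 33.2% were higher. Among the 9216 genes found in at least 22 of the 88 cells, the counts were 520 and 592, and 46.8% of calls were higher. The median log2 fold over the 13446 genes was 0.13, and 51.5% had the same direction on both plates. Lists below are read against these shares. Higher and lower mean calls by this rule, which carries no p-value.

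Of 15 midbrain dopaminergic transcription factors, 13 passed the mean of 1 FPKM, 12 were called higher, 0 lower and 1 neither. Their median log2 fold was 2.66, with 2.92 on plate TH01_14.15 and 3.27 on plate TH01_15.14, beside 0.13 for all genes. Foxa1 and Lmx1b were listed at 0 in E15.MB.1 and passed that mean of 1 FPKM through E15.MB.2 alone, so the sign of their folds was fixed. Without these 2 members the median was 2.65. Foxa1, a pioneer factor of the floor plate, was found in 17 E15.MB.2 cells (85%, 62.1% to 96.8%) with a median of 35 FPKM and a highest value of 176, and was listed at 0 in all 68 E15.MB.1 cells. Its relative Foxa2 was found in 10 E15.MB.2 cells and in 1 E15.MB.1 cell, which alone reached 318 FPKM. Pitx3, the homeodomain factor on which substantia nigra neurons depend, had a median of 297 FPKM and was found in 17 E15.MB.2 cells. It was found in 3 E15.MB.1 cells, of which the highest reached 740.3 FPKM, and its log2 fold was 4.66, with 8.83 and 3.41 on the 2 plates. Every E15.MB.2 cell with Pitx3 also had Nr4a2, which follows from Nr4a2 being found in all 20 cells. The 3 E15.MB.1 cells with Pitx3 lacked Nr4a2, which was found in only 7 of the 68 cells, so these overlaps do not show a link of the 2 genes.

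The called members with the smallest folds were Bnc2 (1.26), Otx2 (1.33), Sox6 (1.70) and Pbx3 (1.77). Otx2 and Sox6 were each found in 5 E15.MB.2 cells, and a single cell supplied 63.4% of the summed Sox6 level. Neurog2, a proneural factor of progenitors, was found in 2 and 1 cells, with a log2 fold of 0.19. En2 and Msx1 lay under the mean of 1 FPKM, En2 found in 3 and 6 cells and Msx1 listed at 0 in both clusters.

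Counted cell by cell, 5 to 11 of the 15 factors were found in each E15.MB.2 cell (median 9) and 0 to 5 in each E15.MB.1 cell (median 2). The ranges met at 5 factors, with 1 E15.MB.2 cell and 5 E15.MB.1 cells. For Lmx1a, Foxa1, Nr4a2 and Pitx3 alone, 13 E15.MB.2 cells had all 4 and the other 7 had 3. In E15.MB.1, 57 cells had none of the 4, 10 had 1 and 1 had 2. The 4 genes were picked with these values known, so this count is a description of how completely the cells combine them.

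The dopamine genes varied in how many cells had them, from 17 of 20 for Ddc and Slc18a2 to 6 for Drd2. Th (chromosome 7, 142892752 to 142931128, minus strand) ranged in E15.MB.2 from 0 to 26080 FPKM with a median of 1248, and in E15.MB.1 from 0 to 967 with a median of 0. A level of 1 FPKM or more was reached in 13 E15.MB.2 cells (65%, 40.8% to 84.6%) and in 13 E15.MB.1 cells (19.1%, 10.6% to 30.5%). The ranges overlapped because 7 E15.MB.2 cells were at 0 and the highest E15.MB.1 cell exceeded the lowest E15.MB.2 value above 0, which was 447 FPKM. The log2 fold was 6.95, with 8.26 and 4.42 on the 2 plates. The reporter itself, eGFP, was found in 11 E15.MB.2 cells (55%) and 6 E15.MB.1 cells (8.82%), with means of 2488 and 3.07 FPKM, although all cells had been sorted for its fluorescence. Each of the 11 E15.MB.2 cells with eGFP RNA also had Th, 2 had Th alone, and 7 had neither. In E15.MB.1, 3 cells had both and 52 had neither.

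Cells listed at 0 for Th still had the factors. All 7 E15.MB.2 cells without Th had Lmx1a and, like all 20 cells of the cluster, Nr4a2, and 5 of them had Pitx3. Of these 7 cells, 4 had Ddc and 6 had Slc18a2. Ddc, DOPA decarboxylase, was found in 17 E15.MB.2 cells and thus in every cell with Th, with a median of 1037 FPKM, a highest value of 7328 and a mean of 1719. In E15.MB.1 it was found in 6 cells with a mean of 24.3 FPKM, and its log2 fold was 6.09. Slc18a2, the vesicular monoamine transporter VMAT2, was found in 17 E15.MB.2 cells at a median of 169 FPKM, and at lower levels in 25 E15.MB.1 cells (36.8%, 25.4% to 49.3%), whose highest value was 141 FPKM. It was the dopamine gene most often found outside the cluster.

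The sequences just upstream of the annotated starts of 4 called genes with this pattern are given from the RefSeq table of build GRCm38.p6, 250 bases each and in the direction of the gene, to show what promoter sequence belongs to the described genes. Capitals mark matches, on either strand, to any of 6 motifs: AAAGGTCA (the NBRE, a site of Nr4a2 and its relatives), GGATTA (the bicoid site of Pitx factors), TGTTTAC (a forkhead core), TAATTA (a homeodomain core), TATAAA (the box bound by the basal machinery) and TGACGTCA (a cyclic AMP response element, CRE, chosen with the Th sequence in view).
Th (chr7:142899996-142900245, minus strand): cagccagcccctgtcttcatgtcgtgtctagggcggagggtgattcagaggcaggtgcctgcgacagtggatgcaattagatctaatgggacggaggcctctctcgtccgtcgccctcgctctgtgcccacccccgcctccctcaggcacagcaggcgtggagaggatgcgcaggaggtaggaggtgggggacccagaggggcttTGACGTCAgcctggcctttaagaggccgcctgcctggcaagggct
Ddc, distal start (chr11:11898145-11898394, minus strand): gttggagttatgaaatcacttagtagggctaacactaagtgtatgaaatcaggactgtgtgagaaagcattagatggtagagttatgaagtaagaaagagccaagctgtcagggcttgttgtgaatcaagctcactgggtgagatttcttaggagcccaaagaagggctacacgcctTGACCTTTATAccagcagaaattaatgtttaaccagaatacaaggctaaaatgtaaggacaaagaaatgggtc
Ddc, proximal start (chr11:11890409-11890658, minus strand): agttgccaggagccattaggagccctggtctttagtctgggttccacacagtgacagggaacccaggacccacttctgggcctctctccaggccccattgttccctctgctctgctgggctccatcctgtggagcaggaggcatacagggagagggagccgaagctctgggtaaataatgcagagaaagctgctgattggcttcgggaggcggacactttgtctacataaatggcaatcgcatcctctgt
Slc6a3 (chr13:73536497-73536746, plus strand): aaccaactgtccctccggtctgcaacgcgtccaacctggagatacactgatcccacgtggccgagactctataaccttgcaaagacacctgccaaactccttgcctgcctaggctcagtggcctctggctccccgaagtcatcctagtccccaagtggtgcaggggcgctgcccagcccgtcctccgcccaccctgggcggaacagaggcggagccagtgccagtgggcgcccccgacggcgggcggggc
Pitx3 (chr19:46148326-46148575, minus strand): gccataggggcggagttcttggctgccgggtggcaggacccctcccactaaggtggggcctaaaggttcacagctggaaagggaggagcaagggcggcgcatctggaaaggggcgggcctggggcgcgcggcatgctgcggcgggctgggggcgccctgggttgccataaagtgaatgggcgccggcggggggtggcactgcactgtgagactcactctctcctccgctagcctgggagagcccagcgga

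The Th window lies inside the longer span given above for Th, since the RefSeq start differs from the end of that GENCODE M21 span. It overlaps 19 bases of an annotated Th exon, and the Pitx3 window overlaps 1 base of a Pitx3 exon. The Th window held the CRE at 45 to 38 bases before the RefSeq start, a motif found in 1.55% of the 32851 start windows of the table. The distal Ddc window held an NBRE on the opposite strand at 73 to 66 bases before the start, which overlaps a TATAAA match, while the proximal window held none of the 6. NBRE matches occurred in 1.34% of all windows, TATAAA in 12.4%, GGATTA in 6.25%, TAATTA in 4.84% and TGTTTAC in 3.17%. Of the 20 genes named here as highest or shared, 14 were in the table, with 15 starts, of which 1 held an NBRE, 0 GGATTA, 1 TGTTTAC, 0 TAATTA, 4 TATAAA and 1 the CRE. These are matches of letters in a short window and say nothing of binding.

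Slc6a3 (chromosome 13, 73536747 to 73578672, plus strand), the transporter that defines mature dopamine neurons, ranged in E15.MB.2 from 0 to 8579 FPKM with a median of 59.9, and in E15.MB.1 from 0 to 108 with a median of 0. It was found in 12 (60%, 36.1% to 80.9%) and in 3 cells (4.41%, 0.919% to 12.4%). The log2 fold was 8.12, with 8.39 and 7.22 on the 2 plates, and the highest cell supplied 42.7% of the summed level in E15.MB.2. Of the 12 E15.MB.2 cells with Slc6a3, 10 had Th and 2 did not. Gch1, which makes the first step toward the cofactor of tyrosine hydroxylase, was found in 11 and 6 cells with a log2 fold of 5.90. Drd2, the inhibitory dopamine autoreceptor, was found in 6 E15.MB.2 cells (30%) and 3 E15.MB.1 cells, with a log2 fold of 4.64.

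Of the 16 genes of dopamine synthesis, storage, reuptake and breakdown, 15 passed the mean of 1 FPKM, 8 were called higher, 0 lower and 7 neither, with a median log2 fold of 1.80. On the plates the medians were 2.52 and 0.48, and without the highest cell of each gene and cluster the median was 1.00. The higher calls of Maob, a mitochondrial monoamine oxidase, and Slc18a1, the endocrine vesicular transporter, rest on few cells (2 and 3 of 20), with 80.9% and 78.3% of the summed level in a single cell. Among the 7 called neither were Qdpr (-0.24) of cofactor recycling, Pts (-0.95) of cofactor synthesis and the other monoamine oxidase, Maoa (1.09). Dbh, which turns dopamine into noradrenaline, was listed at 0 in both clusters, as were the noradrenergic genes Phox2a and Slc6a2.

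Counting Th, Ddc, Slc18a2, Slc6a3, Gch1 and Drd2, an E15.MB.2 cell had 1 to 6 of these 6 genes (median 4), and 4 cells had all 6. Only 3 of 20 had 1 gene. E15.MB.1 cells had 0 to 3, and 29 of 68 had none. The cell with the highest Th, eGFP, Slc6a3, Ddc and Nr4a2 (26080, 13682, 8579, 7328 and 3631 FPKM) was also the 1 cell listed at 0 for Lmx1a, and it had the largest FPKM sum of the cluster, 4079150.

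Across the 20 E15.MB.2 cells, the dopamine genes ranked much alike, and Lmx1a and Foxa1 ranked differently. Spearman's rho with Th was 0.92 for Ddc, 0.89 for eGFP, 0.77 for Slc18a2 and 0.76 for Slc6a3, against 0.00 for Lmx1a and -0.20 for Foxa1. Among the other factors it was 0.76 for En1, 0.52 for Pitx3 and 0.40 for Nr4a2. The FPKM sum of the cell was not removed from this measure, and rho with that sum was 0.53 for Th, 0.76 for Nr4a2 and -0.13 for Foxa1. With the labelled number of genes per cell, rho was 0.09 for Th, 0.24 for Nr4a2 and -0.25 for Foxa1. After each cell was scaled to 1000000 FPKM, rho with Th was 0.76 for Ddc, 0.89 for eGFP, 0.63 for Slc18a2, 0.70 for Slc6a3, -0.20 for Lmx1a, -0.32 for Foxa1, 0.76 for En1, 0.30 for Pitx3 and -0.08 for Nr4a2. Among 5480 genes found in at least 10 of the 20 cells at a mean of at least 20 FPKM, the 5 most like Th were Ddc, eGFP, Erc2 (0.85), Tox2 (0.84) and Dlk1 (0.83). The 5 most like Slc6a3 were Akr1b3 (0.86), Tox2 (0.82), Ddc (0.82), Gab2 (0.80) and Ctnna1 (0.80). After the same scaling, rho with Th was 0.43 for Tox2 and 0.82 for Dlk1.

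**Figure D3:**
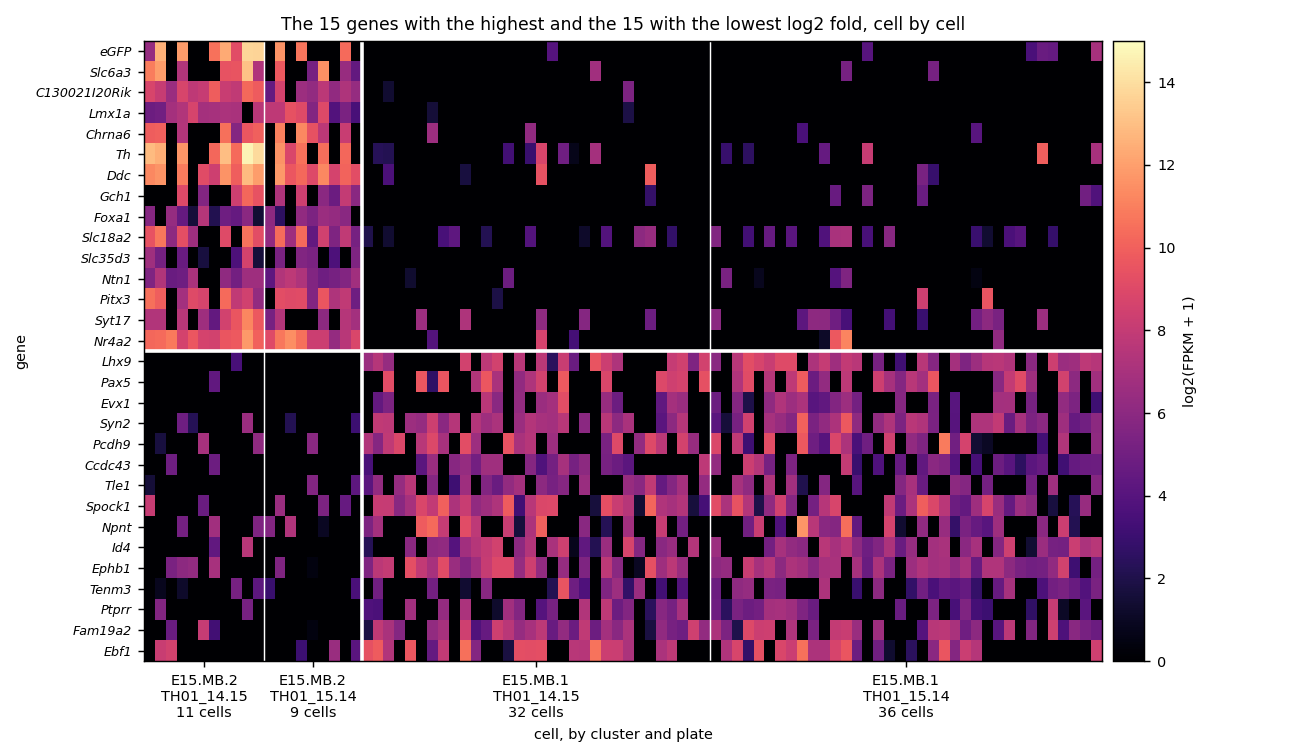
Level of the 15 genes with the highest and the 15 with the lowest log2 fold in each of the 88 cells, as log2(FPKM + 1), with cells in columns by cluster and plate. The upper left block is filled in both plates of E15.MB.2, with gaps for eGFP, Slc6a3, Chrna6, Th and Gch1, and the lower left block is sparsely filled.

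The nicotinic receptor genes split by subunit. Chrna6 (chromosome 8, 27403212 to 27413944, minus strand), an acetylcholine receptor subunit that is concentrated in catecholamine neurons, ranged in E15.MB.2 from 0 to 2437 FPKM (median 188) and in E15.MB.1 from 0 to 94.9 (median 0). Cells with it numbered 12 (60%) and 4 (5.88%), and its log2 fold was 7.19, with 6.33 and 8.51 on the 2 plates. Of the 12 E15.MB.2 cells with Slc6a3, 11 had Chrna6. Chrnb3, its usual partner subunit, was found in 9 E15.MB.2 cells and listed at 0 in all E15.MB.1 cells. Chrna4 had a log2 fold of 1.90, and 1.13 without the highest cell of each cluster, while Chrna3, Chrna5, Chrna7 and Chrnb2 were called neither, at values between -0.46 and 0.54. In all, 3 of the 7 subunits past the mean of 1 FPKM were called higher and 0 lower, with a median log2 fold of 0.54. Chrnb3 passed that mean through E15.MB.2 alone, which fixed the sign of its fold, and without it the median was 0.43.

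Other genes described from midbrain dopaminergic neurons were higher for the most part. Of 25 on that list, 24 passed the mean of 1 FPKM, of which 16 were called higher, 1 lower and 7 neither. Their median log2 fold was 2.78, and 2.53 without the 4 members listed at 0 in a cluster. Each of these 4 passed that mean through the other cluster alone, so the sign of its fold was fixed. Dlk1, a membrane protein related to Notch ligands, had a log2 fold of 4.19, and a single cell held 54.2% of its summed level. Slc10a4, an orphan transporter of monoaminergic vesicles, had a log2 fold of 3.39, and Syt17, a synaptotagmin-like protein, 4.32. Slc35d3, a solute carrier family member outside that list but among the 15 highest genes, was found in 12 E15.MB.2 cells, with 51.6% of its sum in 1 cell, and was listed at 0 in E15.MB.1. Gucy2c, a guanylyl cyclase receptor, was found in 7 E15.MB.2 cells and was listed at 0 in E15.MB.1. Sncg, γ-synuclein, was the exception, listed at 0 in E15.MB.2 and found in 6 E15.MB.1 cells with 47.7% of its sum in 1 cell.

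The 2 regional lists did not single out a division of the adult midbrain. Of 13 substantia nigra-associated genes past the mean of 1 FPKM, 7 were called higher and 0 lower (median log2 fold 2.26). Of 14 ventral tegmental-associated genes, 6 were called higher and 2 lower (median 1.61). The nigral Aldh1a1 and Anxa1 were listed at 0 in E15.MB.1 and passed that mean through E15.MB.2 alone, so the sign of their folds was fixed. Without these 2 members the nigral median was 1.70, and the tegmental list had no such member. The medians on plates TH01_14.15 and TH01_15.14 were 2.54 and 0.92 for the nigral list and 1.46 and 0.17 for the tegmental list. Without the highest cell of each gene and cluster, the nigral median was 1.66 and the tegmental median 0.72. Aldh1a1, a retinaldehyde dehydrogenase of ventral tier nigral neurons, was found in 6 E15.MB.2 cells (30%, 11.9% to 54.3%), all of them with Th, at up to 9365 FPKM, and was listed at 0 in E15.MB.1. Its near-identical copy Aldh1a7 can take reads from it, was found in 5 E15.MB.2 cells at up to 17.4 FPKM, and is uncertain. Serpine2, a secreted protease inhibitor, had a log2 fold of 2.96, and Cck, a neuropeptide of ventral tegmental neurons, 2.60. The 2 lower ventral tegmental genes were Grp (-3.55) and Slc17a6 (-1.14), the vesicular glutamate transporter VGLUT2. Slc17a6 was found in 11 E15.MB.2 cells, 5 of them with Th, and in 55 E15.MB.1 cells.

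Among receptors and patterning signals of these neurons, 3 of 11 genes past the mean of 1 FPKM were called higher (Ret, Wnt5a and Ptch1) and 2 lower (Ngfr and Ntrk3), with a median log2 fold of 0.33. Wnt5a, a secreted signal of the ventral midbrain, was found in 15 and 11 cells with a log2 fold of 3.60. Gfra1, the GDNF-binding partner of Ret, was called neither at 0.33, with means of 272 and 215 FPKM. Ntrk3, the neurotrophin-3 receptor, had a log2 fold of -1.94, and Ngfr, the low-affinity neurotrophin receptor, was listed at 0 in E15.MB.2 and found in 9 E15.MB.1 cells. Of 26 axon guidance genes, 7 were called higher and 4 lower (median 0.62), with Dcc, the netrin receptor, called neither at 0.75 beside the high Ntn1. Of 21 ion channel genes, 4 were higher and 2 lower (median -0.07). The 4 were Kcnip4 (2.73), Cacna2d3 (2.15), Kcnd3 (1.92) and Scn3b (1.32), of which Kcnd3 encodes the A-type potassium channel Kv4.3 and Kcnip4 a partner protein of that channel family. Of 13 Parkinson disease genes, 2 were higher, among them Gch1, and 0 lower (median 0.43).

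**Figure D4:**
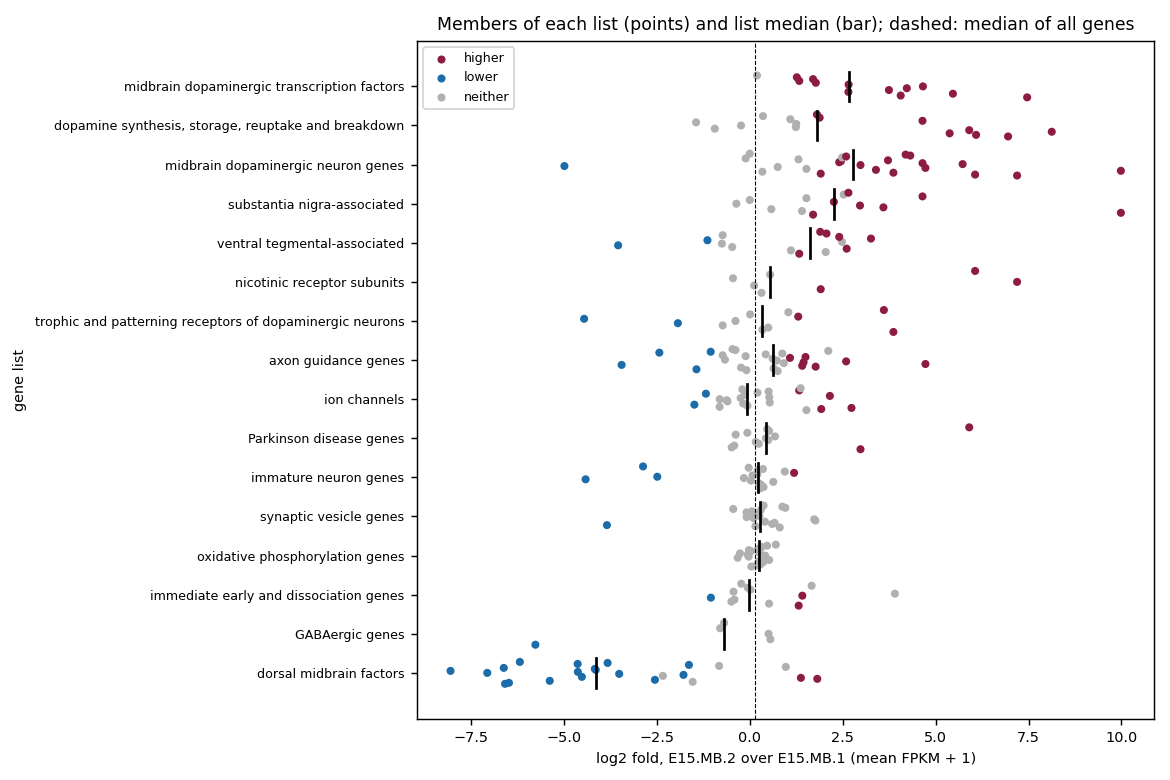
Log2 fold of the members of 16 gene lists that passed a mean of 1 FPKM (points, coloured by call) with the list median (bar) and the median of all 13446 genes (dashed line). Points of genes listed at 0 in a cluster depend on the added 1 FPKM. The dopaminergic lists lie to the right, dorsal midbrain factors lie to the left at a median of -4.15, and the general neuronal lists lie near 0.

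The genes lower in E15.MB.2 were led by factors of the dorsal midbrain. Of 31 such factors, 23 passed the mean of 1 FPKM, 17 were called lower, 2 higher and 4 neither, with a median log2 fold of -4.15, and -2.56 without the 12 members listed at 0 in a cluster. Each of these 12 passed that mean through the other cluster alone, so the sign of its fold was fixed. With the mean of log2 values, the list median was -0.83. Lhx9, a LIM homeodomain factor, ranged from 0 to 10.2 FPKM in E15.MB.2 and from 0 to 727 with a median of 94.5 in E15.MB.1. It was found in 1 of 20 (5%, 0.127% to 24.9%) and in 46 of 68 cells (67.6%, 55.2% to 78.5%), and its log2 fold was -6.59. Pax5, a paired-box factor of the midbrain and its hindbrain border, was found in 1 E15.MB.2 cell at 20.9 FPKM and in 37 E15.MB.1 cells (54.4%), with a log2 fold of -6.49. Evx1, a homeodomain factor of interneurons, was listed at 0 in E15.MB.2 (0 of 20 allows a share of up to 15%) and found in 34 E15.MB.1 cells (50%). Meis2, a TALE factor of the tectum, was found in 1 and 30 cells, with a log2 fold of -8.06.

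These factors divided E15.MB.1 too, and the most widely found member, Mab21l1, was found in 50 of its 68 cells. Tcf7l2 and Lef1, which act at the end of Wnt signalling, were found in 15 and 16 E15.MB.1 cells, and Tfap2b in 4 of them. Counting Lhx9, Pax5, Evx1, Meis2 and Ebf1, 12 E15.MB.2 cells had none and 8 had 1, whereas E15.MB.1 cells had 0 to 5 with a median of 3. All 5 genes were called lower in these same cells, so their choice fixes this count in part. The 2 factors on this list that were higher in E15.MB.2 were Ebf2 (1.81) and Ebf3 (1.37), relatives of Ebf1, which was lower at -2.56. No E15.MB.1 cell had both Lmx1a and Lhx9, but only 2 of them had Lmx1a at all. A single E15.MB.2 cell had both, the only one with Lhx9.

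The other genes with the lowest log2 fold were Syn2 (-3.85), the vesicle protein synapsin II; Pcdh9 (-3.61) and Tenm3 (-2.75), adhesion molecules; Ccdc43 (-3.24); Tle1 (-3.23), a corepressor; Spock1 (-3.10) and Npnt (-3.07), matrix proteins; Id4 (-2.86), an inhibitor of helix-loop-helix factors; Ephb1 (-2.83), a guidance receptor; Ptprr (-2.68), a phosphatase; and Fam19a2 (-2.65), a secreted protein. Ephb1 and Spock1 were each found in 56 E15.MB.1 cells and in 5 E15.MB.2 cells. Of the Id4 level in E15.MB.2, 90.3% came from a single cell, and without the highest cells its log2 fold was -5.25.

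General neuronal genes lay near the median of all genes. Of 18 immature neuron genes, 1 was higher, 3 were lower and 14 neither (median 0.22), and Dcx, Stmn2 and Tubb3 were found in all 88 cells at log2 folds of 0.28, 0.32 and 0.28. Of 20 synaptic vesicle genes, 0 were higher, Syn2 was lower and 19 were neither (median 0.27). All 21 oxidative phosphorylation genes were called neither, between -0.33 and 0.69 (median 0.25). Of 12 immediate early and dissociation genes, 2 were higher and 1 lower (median -0.02), and Fos, found in 19 and 57 cells, had a log2 fold of 1.31 that was 0.43 without the highest cells.

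Most markers of other transmitters and cell types were low in E15.MB.2, with Slc1a2 and Htr1a among the exceptions. Gad1, which makes GABA, was found in 1 E15.MB.2 cell at 3.85 FPKM and in 13 E15.MB.1 cells (log2 fold -5.78), and Gad2 in 4 and 15 cells (0.55, with 70.0% of the E15.MB.2 sum in 1 cell). The cholinergic genes Slc18a3, Slc5a7 and Isl1 were called lower, and Tph2 and Slc6a4 of serotonin neurons were listed at 0 in both clusters. Of the same serotonergic list, Fev was called neither and Htr1a, a serotonin receptor, was called higher (log2 fold 2.34, or 0.20 without the highest cells), found in 2 and 1 cells with 96.8% of its E15.MB.2 sum in a single cell. Summed over 8 endothelial and mural genes, E15.MB.2 cells held 0 to 1.55 FPKM and E15.MB.1 cells 0 to 85.1. Summed over 7 microglia genes they held 0 to 7.84 and 0 to 123 FPKM, and over 6 erythroid genes 0 to 37.0 and 0 to 181. Summed radial glia and astrocyte genes ran from 0 to 1923 FPKM in E15.MB.2 and from 0 to 1507 in E15.MB.1, mostly Slc1a2, a glutamate transporter found in 17 and 41 cells, while Gfap and Aqp4 were listed at 0 in both clusters and Slc1a3 in E15.MB.2. Of 18 progenitor and cell cycle genes 8 lay under a mean of 1 FPKM, and Mki67, Top2a and Sox2 were listed at 0 in both clusters.

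**Figure D5:**
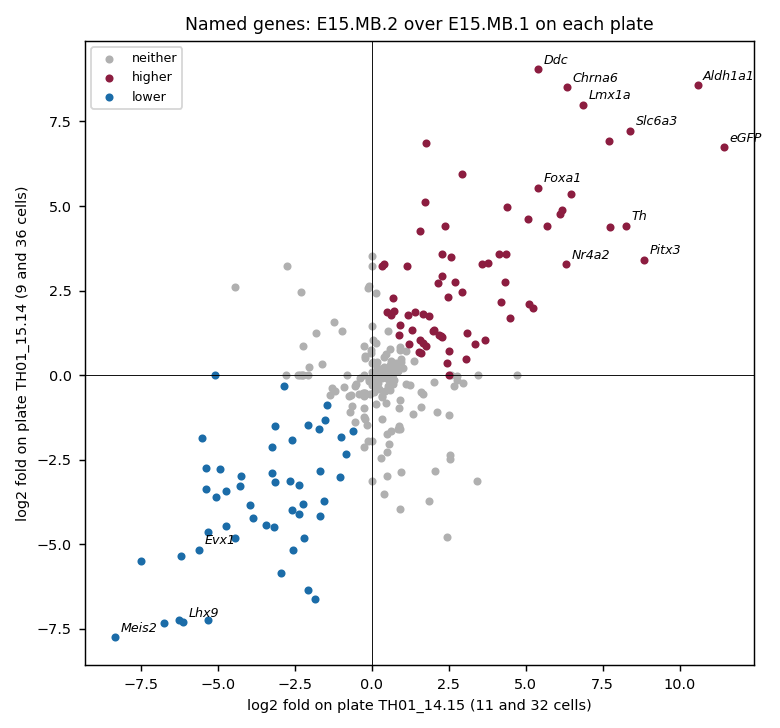
Log2 fold of E15.MB.2 over E15.MB.1 on plate TH01_14.15 (horizontal) and plate TH01_15.14 (vertical) for the named genes that passed a mean of 1 FPKM, coloured by call. The direction on both plates is part of the call, so coloured points lie in 2 quadrants by construction. Th has 8.26 and 4.42, Lmx1a 6.87 and 7.99, and Meis2 -8.33 and -7.74. On plate TH01_15.14, Lmx1a was listed at 0 in all E15.MB.1 cells and Meis2 in all E15.MB.2 cells, so their sizes there depend on the added 1 FPKM.

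The direction was the same on both plates for each of the 5 genes Th, eGFP, Slc6a3, Lmx1a and Chrna6 and for each of the 9 shared genes. All of them were called higher, and a call requires the same direction on both plates. The rule for shared genes requires it only in part. Sizes could still differ, as for Th, Nr4a2 and Pitx3. The number of shared genes per E15.MB.2 cell was 7 to 9 on both plates, and the number of the 15 factors 6 to 11 on plate TH01_14.15 and 5 to 11 on plate TH01_15.14. The median log2 fold over all genes, however, was 0.22 on plate TH01_14.15 and -0.23 on plate TH01_15.14.

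The same genes were looked up in the other clusters of the series, as shares of cells and without a test, since age, region, pool and FPKM scale differ. In the 30 postnatal day 7 midbrain cells of the plate whose columns match their labels, Nr4a2 was found in 93.3%, Ret in 93.3%, Th in 96.7%, Slc6a3 in 86.7%, Foxa1 in 76.7% and Lmx1a in 60%. E15.MB.2 had 100%, 95%, 65%, 60%, 85% and 95% for the same genes. Aldh1a1 was found in 66.7% of those postnatal cells and in 30% of E15.MB.2. The 30 postnatal cells pool the clusters P7.MB.1 to P7.MB.4 (15, 4, 4 and 7 cells), which differed. In that order, Lmx1a was found in 73.3%, 25%, 100% and 28.6% of their cells, and Aldh1a1 in 66.7%, 75%, 0% and 100%. In the 60 cells of E15.FB.1 and the 24 of E15.FB.2, forebrain clusters of the same age, Th was found in 30% and 37.5%, but Lmx1a in 1 and 0 cells, Foxa1 in 1 and 0, Pitx3 in 1 and 0, and En1 in 0 and 0.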

How the data were processed

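Single cells were measured by Smart-Seq2, with 20 preamplification and 14 enrichment cycles per the labels. The authors deposited FPKM values per gene and cell, made with HISAT2 and Cuffnorm on mm10 per the submitters' processing notes; for versions, annotation release and scaling per cell the entry is not given in the sources used here. GENCODE M21 supplied a symbol for 28636 of 28952 features, and 14 features with a repeated symbol were dropped. Since FPKM is no count, depth per cell is unknown, and the labelled number of genes per cell was used in its place. On 3 of 5 library plates the genes per cell in the labels matched the columns (correlation of at least 0.9; both E15.5 plates did, at 0.996 and 0.999), and the 2 unmatched postnatal plates (-0.0338 and -0.0519) were not used.

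Means, shares and log2 folds (pseudocount 1 FPKM, mean of at least 1 FPKM over the 88 cells) were computed with pandas 2.3.3 and numpy 2.4.6, and intervals with scipy 1.17.1. The computation was tested on simulated data. Named in the text are Th, eGFP and the 3 markers; the 15 highest and 15 lowest log2 folds, given a mean of 20 FPKM or more in the higher cluster, found in at least 50% of its cells, with the same direction on both plates and in the mean of log2 values; the shared genes; members of 26 gene lists; and the 5 genes most like Th and Slc6a3. The cells and lists were chosen with earlier results of these data known. Doublets were not called, since wells were filled by sorting. Alternatives were other pseudocounts, filters and scalings, each plate alone, and cells or genes left out. Some members of the lists are counted but their values are not reported here.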

Additional observations from a re-analysis of the deposited data

How the results depend on the processing

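Counts of genes depended on the settings. Of 118 named genes called higher or lower, 118 kept their sign after each cell was rescaled, without the highest cells and in cells with at least 5000 genes, and 116 did with the mean of log2 values. The sign cannot change with the pseudocount, nor reverse for a gene listed at 0 in a cluster. The direction on each plate is part of the call. With that mean, Pcna (-0.25) and Epha4 (-0.061) changed sign. The 945 higher genes became 403 with a pseudocount of 10 FPKM, 495 with the mean of log2 values, 603 after rescaling, 339 without the highest cell of each gene, 2442 on plate TH01_14.15 alone, 1518 on plate TH01_15.14 alone and, by an alternative added after the data were seen, 520 among genes found in at least 22 cells. The 1900 lower genes became 372, 1160 with the mean of log2 values, 987 with a mean of at least 5 FPKM, 3938 on plate TH01_15.14 alone and 592 among genes found in at least 22 cells. The share of calls that were higher ran from 11.5% without the highest cells to 52% with a pseudocount of 10 FPKM, with 23.1% after rescaling, 43.1% with a mean of at least 5 FPKM and 47.5% on plate TH01_14.15 alone. Rescaling moved the median log2 fold of all genes from 0.13 to -0.11. The 9 shared genes all remained after rescaling, 8 remained when found meant above 0 FPKM and 6 at 10 FPKM or more, while plate TH01_14.15 alone gave 30 genes with 8 of the 9, and plate TH01_15.14 alone 6 genes with 5 of the 9. The median of the midbrain dopaminergic factors was 1.66 with a pseudocount of 10 FPKM, 3.30 on plate TH01_15.14 alone, 3.41 without the highest cells and 3.44 in cells with at least 5000 genes. That of the dorsal midbrain factors was -6.77 and -1.44 with pseudocounts of 0.1 and 10 FPKM, -0.83 with the mean of log2 values, -2.34 with no filter and -2.10 among genes found in at least 22 cells. The cause was not tested. Depth is unknown, and 20 cells bound a gene found in none of them to a share of 15%.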

Other observations

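A few E15.MB.1 cells held several of the genes that the E15.MB.2 cells share. The highest counts were 6 of the 9 shared genes in 2 E15.MB.1 cells. The first, replicate 22 on plate TH01_15.14, had Nr4a2 at 2318 FPKM and Slc6a3 at 34.7 FPKM beside Lhx9 at 239.8 FPKM and all 5 of Lhx9, Pax5, Evx1, Meis2 and Ebf1. The second, replicate 54 on plate TH01_14.15, had Lmx1a at 2.71 FPKM, no Nr4a2 and 1 of the 5 dorsal genes. In the opposite direction, the only Lhx9 and Pax5 values above 0 in E15.MB.2, 10.2 and 20.9 FPKM, were in different cells, replicates 16 and 12, each of which also had Th (1299 and 1185 FPKM).

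Of the E15.5 midbrain cells, 7 failed the authors' quality control and carry no cluster name. They had 55 to 349 genes at 1 FPKM or more. Th, eGFP, Slc6a3, Lmx1a, Chrna6, Nr4a2 and Pax5 were listed at 0 in all 7, and Lhx9 was found in 1 of them at 22.9 FPKM.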
